A study of Homo sapiens with 6 samples.

Results

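The Eph receptors and the ephrins that bind them were followed in HCT116, an established human colorectal cancer line, after 2 days with an siRNA against PLOD3 or with the control siRNA si NC, in 3 samples each. PLOD3 encodes an enzyme that hydroxylates and glycosylates collagen lysines, and the series asks what it does in colorectal cancer. All 6 samples came from this 1 line, kept in DMEM with fetal bovine serum, and the genotype label reads NC for the controls and si RNA for the treated samples. The labels do not say whether the 3 samples of a group came from separate cultures. The p-values below set the difference between the groups against the spread between these samples. That spread may be technical, so they may not speak for separate cultures. The members were the rows of the deposited table named EPHA1, EPHA2, EPHA4, EPHB2, EPHB3, EPHB4, EPHB6, EFNA1, EFNB1 and EFNB2, which are 10 of the 60612 genes in the table: 7 receptors and 3 ephrins.

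Eph receptors are receptor tyrosine kinases, and their ligands, the ephrins, sit on the surface of neighbouring cells. Ephrin-A proteins are held by a lipid anchor and ephrin-B proteins cross the membrane, so that contact signals both into the receptor's cell (forward) and into the ephrin's cell (reverse), mostly to repel cells or to sort them apart. In the intestinal crypt, EPHB2 and EPHB3 are targets of Wnt signalling through beta-catenin and TCF and are highest near the base, while ephrin-B1 and ephrin-B2 are highest towards the surface. This opposed pattern keeps crypt cells in their positions.

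RNA was sequenced after removal of ribosomal RNA, and the table gives for each sample an FPKM (fragments scaled by transcript length and library depth) and an estimated count. The estimated counts summed to 55416555 to 76802428 per sample. They pile up at multiples of 4, and if 4 units stand for 1 read pair, which no source states, the read pair numbers given below follow. PLOD3 was at 6.40, 7.16 and 6.22 FPKM in the controls and 3.44, 3.40 and 4.05 after PLOD3 siRNA, and fell to 55.1% of the control (log2 -0.85, edgeR adjusted p = 0.0035). Of the 12000 genes with a mean of at least 1 FPKM, 19.3% were called lower and 16.2% higher by edgeR (adjusted p under 0.05). Higher genes made up 45.6% of all calls, and 62.8% when FPKM were rescaled to TPM and tested with limma. The difference between the groups went with the GC content of transcripts. When the tested genes were cut into 5 classes of equal size by GC content, the class with the lowest (23.1 to 41.2%) had a median log2 fold change of 0.27 with 2.55% called lower, whereas the class with the highest (58.3 to 78.7%) had -0.33 with 40.7%. Of the 9 members tested, 7 lay in that highest class, EPHB2 in the class below it and EFNB2 in the middle class, so values after a GC correction, in which each sample's smooth trend on transcript GC content was taken out, stand beside the results below. PLOD3 itself has 61.75% GC, and its log2 fold change was -0.52 after that correction (edgeR adjusted p = 0.00748). What made the difference go with GC content was not tested. Among 12 colon epithelial markers, EPCAM (94.7 FPKM in si NC), KRT8, KRT18 and KRT19 were high, CDX1 was listed without reads in every sample and VIL1 had a mean of 0.00913 FPKM in si NC. Of the 9 epithelial markers tested, CLDN3, KRT18, KRT19, KRT20 and CDH1 fell, where 19.3% of all tested genes fell. CLDN4 went from a mean of 22.2 to 10.5 FPKM and was not called. KRT18 (edgeR adjusted p = 0.051) and KRT19 (0.225) were no longer called with GC content corrected. Then 3 of the 9 were lower, against 14.2% of all tested genes. With 1 sample omitted, KRT19 was called in 0 and CDH1 in 2 of the 6 fits. EPCAM had a mean of 101 FPKM in PLOD3 siRNA, and the sum over the list was 709 to 755 FPKM with si NC against 581 to 659 with PLOD3 siRNA. Fibroblast markers summed to 2.66 to 2.89 FPKM with si NC against 1.52 to 1.93 with PLOD3 siRNA, nearly all COL1A1 with DCN, LUM and FAP without reads, and leukocyte markers to 1.04 to 1.95 against 1.72 to 1.897, mostly CD68 with PTPRC and CD3E without reads. The part of these markers in the results was not tested.

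All 10 members had a promoter in RefSeq (build GRCh38.p14, 12 entries, of which the one nearest to the table's gene start was taken). The 250 bases before the start are shown for 4 of them. EPHB2 and EPHB3 are shown as the crypt receptors, and EPHA1 and EFNA1 because each holds 5 copies of the same motif. Capitals mark GGGCGG, the GC box bound by SP1, or the same letters read on the other strand (CCGCCC), and neighbouring copies can overlap. The windows are chr1:22710589-22710838 (plus strand) for EPHB2, chr3:184561535-184561784 (plus) for EPHB3, chr7:143408857-143409106 (minus) for EPHA1 and chr1:155127626-155127875 (plus) for EFNA1.
EPHB2: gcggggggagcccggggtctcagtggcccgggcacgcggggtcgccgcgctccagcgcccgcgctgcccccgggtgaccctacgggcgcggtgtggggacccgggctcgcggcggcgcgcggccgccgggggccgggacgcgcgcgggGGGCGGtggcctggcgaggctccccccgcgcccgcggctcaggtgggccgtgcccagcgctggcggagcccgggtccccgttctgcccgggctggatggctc
EPHB3: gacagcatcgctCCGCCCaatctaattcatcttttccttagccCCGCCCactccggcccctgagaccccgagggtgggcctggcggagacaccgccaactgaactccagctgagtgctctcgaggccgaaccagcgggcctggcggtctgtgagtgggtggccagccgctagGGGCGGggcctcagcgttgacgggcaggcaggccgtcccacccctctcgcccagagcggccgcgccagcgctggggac
EPHA1: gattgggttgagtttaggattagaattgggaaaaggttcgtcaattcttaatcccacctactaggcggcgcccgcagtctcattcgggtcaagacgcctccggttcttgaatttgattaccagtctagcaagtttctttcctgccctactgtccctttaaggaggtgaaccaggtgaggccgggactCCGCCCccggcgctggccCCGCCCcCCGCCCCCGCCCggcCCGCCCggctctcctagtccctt
EFNA1: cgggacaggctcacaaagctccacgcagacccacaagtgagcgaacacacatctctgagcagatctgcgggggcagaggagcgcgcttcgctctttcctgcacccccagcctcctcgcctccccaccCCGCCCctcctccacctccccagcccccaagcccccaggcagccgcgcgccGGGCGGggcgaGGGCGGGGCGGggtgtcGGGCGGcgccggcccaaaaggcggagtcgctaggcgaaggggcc
The GC box was found in all 10 member windows, against 42.6% of 35116 RefSeq windows of this length and 66.1% of the 12435 that belong to tested genes. EPHB2, with 1 copy, has 84.8% GC in its window, EPHB3 with 3 copies 70.0%, EFNA1 73.2% and EPHA1 59.2%, against a median of 65.2% over the windows of tested genes. The TCF/LEF core CTTTGAT (2.26% of all windows and 1.39% of those of tested genes), the E-box CACGTG (6.35% and 8.5%), the AP-1 site TGANTCA (6.57% and 4.07%) and the ETS core CCGGAAG (8.52% and 15.3%), each searched on both strands, were in 0 member windows, a count near what such shares give in 10. For EPHB6 the RefSeq start lies 7695 bases inside the gene as the table gives it, so its window may not be the promoter used here. Whether any of these motifs had a part in the results was not tested.

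In si NC the members spanned from 33.1 FPKM for EPHA2 to 0.610 for EPHA4, and the family in HCT116 was led by an A-class and a B-class receptor. EPHA2 (mean 33.1 FPKM) stood above EPHB4 (15.5), EPHB4 above EFNB2 (9.79) and EFNB2 above EFNB1 (7.32) in every si NC sample. EFNB1 overlapped with EPHA1 (6.64), and EPHA1 with EFNA1 (5.90), as did EPHB2 (2.65) with EPHB6 (2.40). EPHB3 (2.13) lay below EPHB6 and above EPHA4 in every si NC sample. With PLOD3 siRNA the 4 highest of the 10 members kept their ranks by mean, EPHA1 moved from rank 5 to 6 behind EFNA1, and EPHB2 from rank 7 to 9. These ranks leave out the other family genes. Of those, EFNA3 had means of 11.98 FPKM in si NC and 10.8 in PLOD3 siRNA, above EFNB2 in each group. EPHB2 overlapped with both EPHB3 and EPHB6 in each group, so its move in rank is one of means only. EFNB1 also overlapped with EFNA1 in each group.

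**Figure D1:**
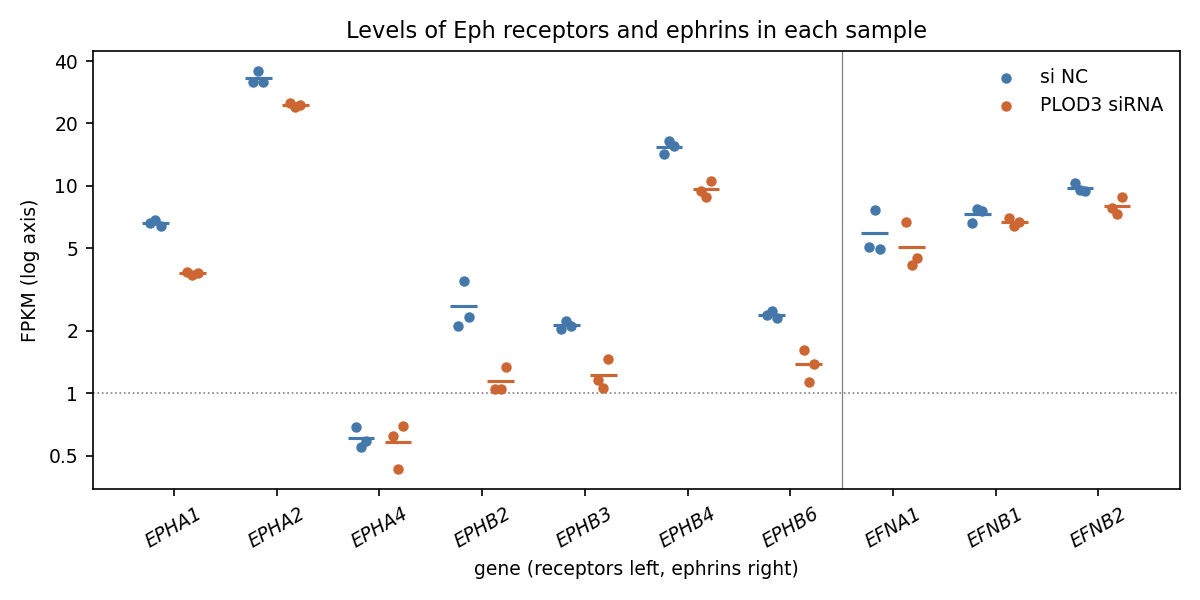
FPKM of the 10 members on a log axis, with 1 point per sample, a bar at the mean of each group (n = 3) and a dotted line at 1 FPKM, the mean level above which genes were tested. Points of the 2 groups do not overlap for EPHA1, EPHA2, EPHB2, EPHB3, EPHB4, EPHB6 and EFNB2, and they do for EPHA4, EFNA1 and EFNB1.

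Of the 9 members tested, 7 fell with PLOD3 siRNA and 0 rose, and 5 of them fell at least 1.5-fold. Over all tested genes 19.3% were called lower and 16.2% higher, and 9.17% were lower by at least 1.5-fold. In the class with the highest GC content, which holds 7 of the 9, 40.7% were called lower and 2.38% higher, so a count of 0 higher is near that share. No member was higher at an unadjusted p under 0.05 in edgeR, DESeq2 or limma (0 of 9 in each), and these tools called 7, 7 and 6 members lower. The 6 tested receptors fell, and among the 3 ephrins EFNB2 fell. The 2 groups did not overlap in the same 7 genes, against 27.5% of all tested genes that were lower in PLOD3 siRNA without overlap. The median log2 fold change of the 9 was -0.68, and that of all tested genes was 0.003. After the GC correction the median was -0.37 and 6 members were called lower, against 14.2% of all genes. After a correction for GC content and length 3 were called lower (EPHA1, EPHB2 and EPHB4), against 13.7%. Each tested member was above 1 FPKM in all samples, the lowest value being 1.05 for EPHB2, so none entered the test through 1 group alone.

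EPHA2, a receptor of epithelial cells that binds mainly ephrin-A1, lies on chromosome 1 (16124337 to 16156069, minus strand, GRCh38; ENSG00000142627). It was at 31.6, 35.9 and 31.8 FPKM under si NC, compared with 25.1, 24.1 and 24.5 under PLOD3 siRNA. All si NC samples were above all PLOD3 siRNA samples, and the treated samples lay close together. The mean fell from 33.1 ± 2.45 to 24.6 ± 0.516 FPKM (SD, n = 3 each), with log2 -0.43 (SE 0.0821, edgeR adjusted p = 0.0107). EPHA2 lost this call after the GC correction, where the log2 fold change was -0.12 (edgeR adjusted p = 0.149), and when length was corrected as well (-0.07, adjusted p = 0.392).

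EPHA1, the founding member of the family, lies on chromosome 7 (143390289 to 143408856, minus strand; ENSG00000146904). It was at 6.66, 6.86 and 6.39 FPKM with si NC against 3.83, 3.72 and 3.80 with PLOD3 siRNA. The groups were far apart beside the spread within each. The mean fell from 6.64 ± 0.240 to 3.78 ± 0.0571 FPKM (n = 3 each), to 57.0% of the control (log2 -0.80, SE 0.0779, edgeR adjusted p = 0.00242). It remained called after the GC correction (log2 -0.52, edgeR adjusted p = 0.00467), after the GC and length correction (0.00412) and without any 1 sample (0.00825 to 0.0152). EPHA1 overlaps ZYX, the gene of the focal adhesion protein zyxin, on the other strand. They share 82 exon bases, 1.73% of the annotated exon bases of EPHA1. ZYX fell from 33.2 ± 3.23 to 18.5 ± 1.35 FPKM (n = 3 each), with log2 -0.84 (edgeR adjusted p = 0.00335), and -0.44 after the GC correction (adjusted p = 0.00702). The strand setting of the counting is not given, so reads from the shared bases cannot be assigned to either gene, and their part in the EPHA1 result was not tested.

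EPHA4, a receptor that binds ephrins of both classes, lies on chromosome 2 (221418027 to 221574158, minus strand; ENSG00000116106). It was at 0.690, 0.549 and 0.592 FPKM in the controls and 0.626, 0.429 and 0.699 after PLOD3 siRNA. The groups overlapped, and its estimated counts of 214 to 404 would then stand for about 54 to 101 read pairs a sample. With a mean under 1 FPKM it was not among the tested genes. In a fit without that filter its log2 fold change was -0.05 (edgeR adjusted p = 0.918).

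Of the B-class receptors, EPHB2 had the lowest log2 fold change, which was also the lowest among the 9 members tested. It lies on chromosome 1 (22710839 to 22914270, plus strand; ENSG00000133216). EPHB2 was at 2.12, 3.50 and 2.33 FPKM under si NC, compared with 1.05, 1.05 and 1.34 under PLOD3 siRNA. Replicate 2 of si NC stood above the other two, and the lowest control was still above the highest treated sample. EPHB2 thus fell from 2.65 ± 0.742 to 1.15 ± 0.168 FPKM (n = 3 each), to 43.4% of the control (log2 -1.21, SE 0.221, edgeR adjusted p = 0.00916). Without si NC replicate 2 the log2 fold change was -0.93 (edgeR adjusted p = 0.0132). After the GC correction it was -1.003 (adjusted p = 0.0151).

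EPHB3, which acts with EPHB2 in the crypt, lies on chromosome 3 (184561785 to 184582408, plus strand; ENSG00000182580). It was at 2.04, 2.23 and 2.12 FPKM with si NC against 1.16, 1.06 and 1.46 with PLOD3 siRNA, with no overlap. The mean fell from 2.13 ± 0.0949 to 1.23 ± 0.208 FPKM (n = 3 each), with log2 -0.79 (SE 0.142, edgeR adjusted p = 0.00855). The log2 fold change of EPHB3 was -0.45 after the GC correction (adjusted p = 0.042), and it missed the threshold when length was corrected as well (-0.39, adjusted p = 0.0529). Its estimated counts were 316 to 860, or about 79 to 215 read pairs a sample if 4 units are 1 pair, so it is among the less precisely measured members.

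EPHB4, a receptor best known from veins, where it meets ephrin-B2 of arteries, was the highest B-class receptor. It lies on chromosome 7 (100802565 to 100827523, minus strand; ENSG00000196411), 378 kb from PLOD3. EPHB4 was at 14.3, 16.5 and 15.6 FPKM in the controls and 9.48, 8.87 and 10.5 after PLOD3 siRNA, without overlap. EPHB4 thus fell from 15.5 ± 1.12 to 9.63 ± 0.842 FPKM (n = 3 each), to 62.3% of the control (log2 -0.68, SE 0.0937, edgeR adjusted p = 0.00431). After the GC correction the log2 fold change was -0.37 (adjusted p = 0.012), and with length corrected as well -0.28 (adjusted p = 0.0186). EPHB4 overlaps SLC12A9 on the other strand over 69 exon bases, 1.07% of the exon bases of EPHB4, and SLC12A9 was at 2.57 ± 0.222 and 1.97 ± 0.188 FPKM (n = 3 each). Endothelial markers were at or near 0: CDH5, FLT1 and EMCN were listed without reads in every sample and PECAM1 had a mean of 0.0189 FPKM in si NC. The sum over the 10 endothelial markers was 2.54 to 2.87 FPKM in si NC and 2.42 to 2.87 in PLOD3 siRNA, nearly all of it ESAM.

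EPHB6, a member whose kinase domain has no catalytic activity, lies on chromosome 7 (142855061 to 142871094, plus strand; ENSG00000106123). It was at 2.40, 2.48 and 2.32 FPKM under si NC, compared with 1.62, 1.13 and 1.38 under PLOD3 siRNA. The controls lay close together and above every treated sample. EPHB6 thus fell from 2.40 ± 0.0823 to 1.38 ± 0.244 FPKM (n = 3 each), with log2 -0.79 (SE 0.137, edgeR adjusted p = 0.00768). The log2 fold change of EPHB6 was -0.48 after the GC correction (adjusted p = 0.0414), and its call was lost when length was corrected as well (-0.41, adjusted p = 0.0562). Thus 3 of the members that fell, EPHA1, EPHB4 and EPHB6, are on chromosome 7 with PLOD3. Of the 591 tested genes on that chromosome 19.1% were called lower, close to the 19.3% over all genes.

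Among the ephrins, EFNB2, the transmembrane ligand of EPHB4, lies on chromosome 13 (106489745 to 106535662, minus strand; ENSG00000125266). It was at 10.3, 9.59 and 9.46 FPKM with si NC against 7.85, 7.33 and 8.80 with PLOD3 siRNA, without overlap. EFNB2 thus fell from 9.79 ± 0.460 to 7.995 ± 0.744 FPKM (n = 3 each), with log2 -0.29 (SE 0.0764, edgeR adjusted p = 0.029). Among the 6 fits with 1 sample omitted, 1 kept this call, the one without PLOD3 siRNA replicate 3 (edgeR adjusted p = 0.026), and the others gave 0.063 to 0.0975. After the GC correction the log2 fold change was -0.25 (adjusted p = 0.0468), and with length corrected as well the call was lost (-0.16, adjusted p = 0.104).

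EFNB1, the ligand that opposes EPHB2 and EPHB3 along the crypt, lies on chromosome X (68829021 to 68842160, plus strand; ENSG00000090776). It was at 6.65, 7.76 and 7.56 FPKM in the controls and 6.99, 6.40 and 6.73 after PLOD3 siRNA. The groups overlapped, and the means were 7.32 ± 0.594 and 6.71 ± 0.294 FPKM (n = 3 each), with log2 -0.12 (SE 0.0984, edgeR adjusted p = 0.358). Its sign turned after the GC correction (log2 0.18, edgeR adjusted p = 0.132), and the change of EFNB1 passed the test in none of the fits run.

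EFNA1, the lipid-anchored ligand of EPHA2, lies on chromosome 1 (155127876 to 155134899, plus strand; ENSG00000169242). It was at 5.06, 7.66 and 4.98 FPKM under si NC, compared with 6.66, 4.15 and 4.48 under PLOD3 siRNA. One sample in each group stood above the other two, and the groups overlapped. The means were 5.90 ± 1.52 and 5.10 ± 1.36 FPKM (n = 3 each), with log2 -0.21 (SE 0.248, edgeR adjusted p = 0.537). Its sign turned without si NC replicate 2 (log2 0.04, edgeR adjusted p = 0.905) and after the GC correction (0.066, adjusted p = 0.858).

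**Figure D2:**
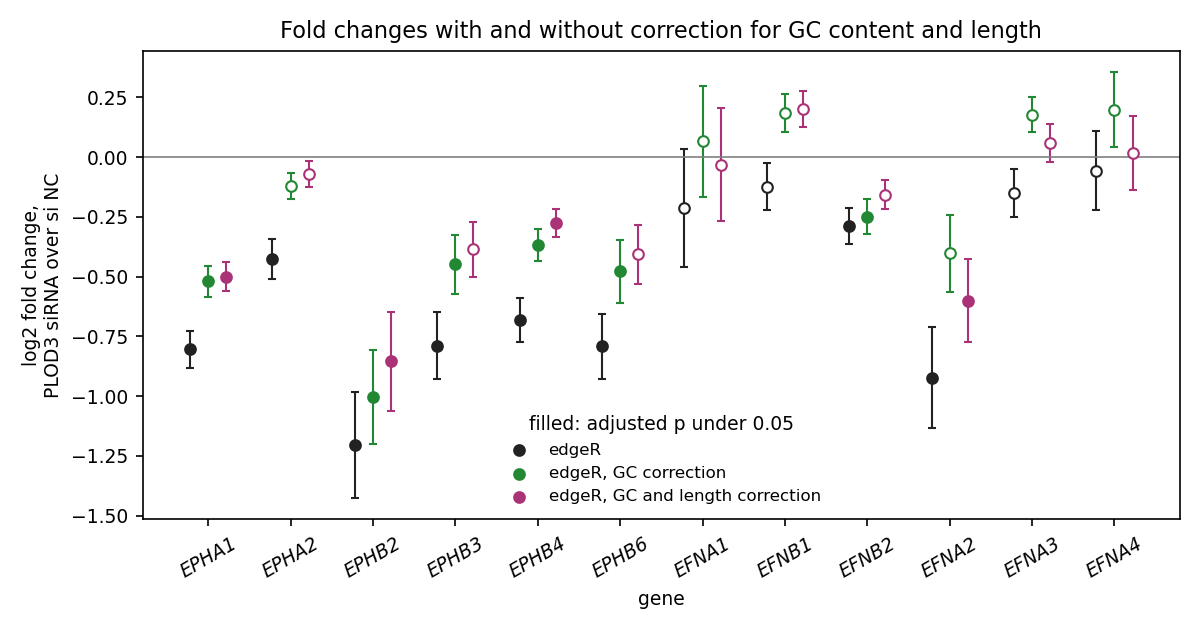
Log2 fold change of PLOD3 siRNA over si NC for the 9 tested members and for EFNA2, EFNA3 and EFNA4, with bars of 1 SE, from edgeR as reported (black), after the GC correction (green) and after the GC and length correction (purple). Filled points have an adjusted p under 0.05: EPHA1, EPHB2 and EPHB4 are filled in all 3 fits, and EFNB1 and EFNA1 in none.

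Levels of a receptor and its ligand in the same sample were also set against each other, which is free of any scaling between samples. The 4 ratios were chosen after the values were seen. The FPKM of EPHB2 relative to EFNB1 was 0.319, 0.450 and 0.308 with si NC against 0.151, 0.164 and 0.199 with PLOD3 siRNA. The mean ratio was 0.359 ± 0.0793 and 0.171 ± 0.0251 (n = 3 each, exact permutation p = 0.1, two-sided, the smallest that 3 against 3 can give). EPHB3 relative to EFNB1 was 0.307, 0.287 and 0.280 with si NC against 0.167, 0.166 and 0.218 with PLOD3 siRNA (exact permutation p = 0.1). In both crypt pairs every treated sample was below every control. EPHB3 and EFNB1 have similar GC content (62.2% and 60.5%), and the difference of their log2 fold changes was -0.66 as reported and -0.63 after the GC correction. For EPHB2 and EFNB1 it was -1.08 and -1.19.

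EPHB4 relative to EFNB2, the pair known from vessels, was 1.39, 1.72 and 1.65 with si NC against 1.21, 1.21 and 1.20 with PLOD3 siRNA (exact permutation p = 0.1). The treated samples were nearly equal and below all controls. These genes differ in GC content (60.8% and 50.0%), and the difference of their log2 fold changes went from -0.39 to -0.12 with the GC correction. EPHA2 relative to EFNA1 was 6.25, 4.69 and 6.38 with si NC against 3.77, 5.81 and 5.47 with PLOD3 siRNA, and the groups overlapped (exact permutation p = 0.5). Adjusted over the 4 ratios, the p-values were 0.133 for the 3 ratios without overlap, so none can pass at this number of samples.

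**Figure D3:**
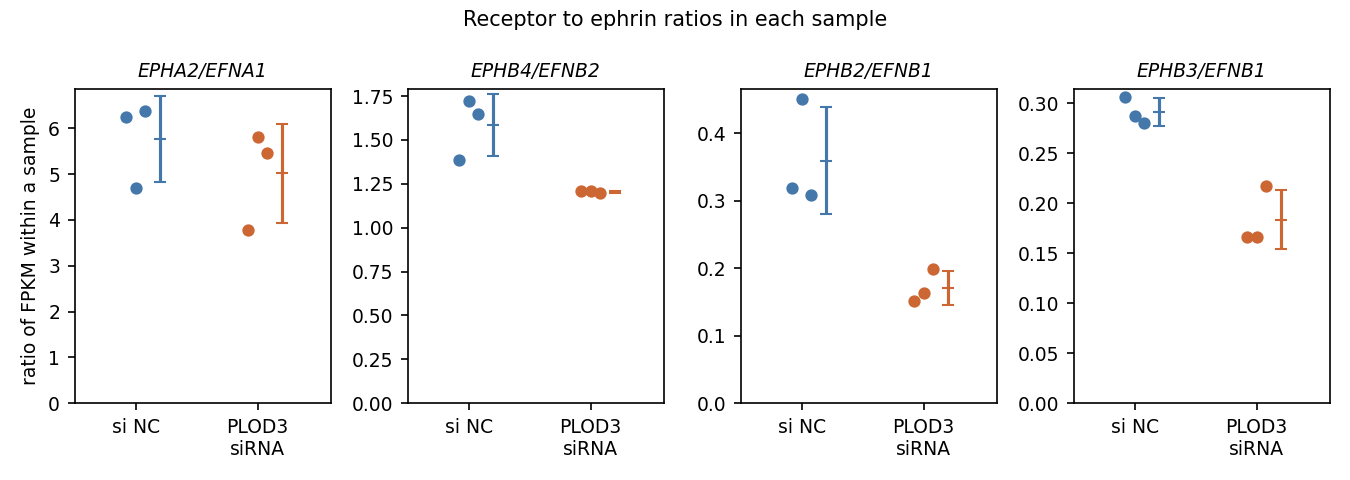
Ratio of receptor FPKM to ephrin FPKM within each sample for 4 pairs, with 1 point per sample and the mean with SD (n = 3) to its right; each axis starts at 0. The si NC points lie above all PLOD3 siRNA points for EPHB4/EFNB2, EPHB2/EFNB1 and EPHB3/EFNB1, and the groups overlap for EPHA2/EFNA1.

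EPHA2, whose fall on the log2 scale was the smallest of the 6 tested receptors, made up a larger part of receptor RNA in every treated sample. EPHA2 held 52.9, 52.8 and 52.0% of the summed FPKM of the 7 receptors with si NC against 58.6, 59.7 and 56.0% with PLOD3 siRNA. EPHB2 went the other way, with 3.54, 5.13 and 3.82% against 2.46, 2.60 and 3.07%. The summed receptor FPKM was 59.8, 68.1 and 61.1 with si NC against 42.9, 40.4 and 43.7 with PLOD3 siRNA, and that of the 3 ephrins was 21.5, 17.9 and 20.01 in the treated samples and above these, up to 25.0, in each control. The receptor sum was 2.72 to 2.78 times the sum of these 3 ephrins in the controls and 1.995 to 2.26 times in the treated samples. That ephrin sum leaves out EFNA2, EFNA3 and EFNA4, with means of 2.68, 11.98 and 5.68 FPKM in si NC. In PLOD3 siRNA their means were 1.42, 10.8 and 5.44 FPKM. The ratio is therefore not that of all receptor RNA to all ephrin RNA. These sums were not corrected for GC content. In bulk RNA, fewer cells with a transcript and less of it per cell cannot be told apart.

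The other 12 Eph and ephrin genes of the genome were mostly at very low levels in HCT116. EPHA5 and EPHA6 were listed without reads in every sample, and EPHA3, EPHA7, EPHA8, EPHB1, EFNA5 and EFNB3 had a mean of at most 0.116 FPKM in each group. EPHA10, another receptor without kinase activity, was at 0.386, 0.874 and 0.356 FPKM with si NC against 0.335, 0.272 and 0.937 with PLOD3 siRNA, with no separation of the groups. Only EFNA2, EFNA3 and EFNA4, which encode lipid-anchored ephrins, were high enough to be tested. EFNA2 was at 2.12, 3.38 and 2.55 FPKM in the controls and 1.54, 1.21 and 1.499 after PLOD3 siRNA, and fell (log2 -0.92, edgeR adjusted p = 0.0184). EFNA2 lost its call after the GC correction (log2 -0.40, edgeR adjusted p = 0.109) and without PLOD3 siRNA replicate 2 (0.0582), and was called after the GC and length correction (-0.60, 0.0493). EFNA3 had means of 11.98 ± 1.14 and 10.8 ± 0.696 FPKM (n = 3 each), with log2 -0.15 (edgeR adjusted p = 0.289) and EFNA4 of 5.68 ± 0.184 and 5.44 ± 1.002 (log2 -0.06, edgeR adjusted p = 0.816). EFNA4, EFNA3 and EFNA1 lie within 71 kb of each other on chromosome 1, and none of these 3 neighbours passed the test.

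Genes that act with Eph receptors and ephrins were taken from 6 lists with 79 genes, of which 67 were tested. Of these, 24 fell and 5 rose, where 19.3% of all tested genes fell and 16.2% rose. The counts were 20 and 1 after the GC correction, when 14 of the 24 and 1 of the 5 were still called. Both without si NC replicate 3 and without PLOD3 siRNA replicate 1, 14 were called lower and 0 higher. The 5 that rose were ADAM9, ACP1, NCK1, RASA1 and MYL12B, a myosin light chain that was the one still called after the GC correction. The median log2 fold change was -0.22 as reported and -0.16 after the GC correction. The 67 genes had a median GC content of 49.5%, close to the 48.7% of all tested genes, whereas the 9 tested members had 60.3%.

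The list of shedding proteases holds enzymes that cut ephrins or their receptors, together with subunits of gamma-secretase. Of its 9 tested genes, MMP14, a membrane protease that cleaves EPHA2, and NCSTN, a subunit of gamma-secretase, fell and ADAM9 rose. These counts are near the 19.3% lower and 16.2% higher over all tested genes. MMP14 went from 4.57 ± 0.577 to 3.21 ± 0.155 FPKM (n = 3 each), with log2 -0.50 (edgeR adjusted p = 0.0231). NCSTN went from 13.8 ± 0.757 to 10.8 ± 1.23 FPKM (n = 3 each), with log2 -0.36 (edgeR adjusted p = 0.0277), and APH1A, another gamma-secretase subunit, stood at 18.0 ± 1.42 and 14.6 ± 1.42 (log2 -0.30, edgeR adjusted p = 0.0551). The calls of MMP14 and ADAM9 were lost after the GC correction, with edgeR adjusted p-values of 0.144 and 0.43, and each of these 3 calls held in 2 of the 6 fits with 1 sample omitted.

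Of 13 kinases, phosphatases and turnover factors, 8 fell and ACP1, the low-molecular-weight tyrosine phosphatase that acts on Eph receptors, rose, where 19.3% of all tested genes fell and 16.2% rose. After the GC correction 6 of the 13 were lower and 0 higher. Among the 8, SRC (edgeR adjusted p = 0.94), ABL1 (0.409) and INPPL1, given below, lost their calls after that correction. The 6 lower genes therefore include a gene that was not called in the reported fit. PTPN1 was called in 0 of the 6 fits with 1 sample omitted. FYN, a SRC-family kinase of forward and reverse signalling, fell from 1.93 ± 0.0965 to 1.06 ± 0.165 FPKM (n = 3 each), with log2 -0.86 (edgeR adjusted p = 0.00519). PTPRF, a receptor phosphatase, fell from 25.6 ± 1.66 to 15.4 ± 0.919 FPKM (n = 3 each), with log2 -0.73 (edgeR adjusted p = 0.00272), which was -0.44 after the GC correction and -0.30 after the GC and length correction. INPPL1, the lipid phosphatase SHIP2 that docks on EPHA2, fell by 0.66 on the log2 scale (edgeR adjusted p = 0.00441), and lost the call after the GC correction (0.0616). PTK2, the focal adhesion kinase, fell by 0.32 (edgeR adjusted p = 0.0131), and by 0.43 after the GC correction. ACP1 was at 15.7, 18.3 and 15.8 FPKM under si NC, compared with 26.3, 18.2 and 24.4 under PLOD3 siRNA, with replicate 2 of the treated samples at the level of the controls (edgeR adjusted p = 0.0412, 0.198 after the GC correction).

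Of 15 adaptors, 7 fell and NCK1 and RASA1 rose, beside 19.3% lower and 16.2% higher over all tested genes, and after the GC correction 5 were lower and 0 higher. GRB10 fell from 3.22 ± 0.162 to 1.73 ± 0.0731 FPKM (n = 3 each), with log2 -0.89 (edgeR adjusted p = 0.002), and GRB7 from 7.44 ± 0.892 to 3.97 ± 0.372 (log2 -0.90, adjusted p = 0.00424); both bind phosphorylated Eph receptors through their SH2 domains. NCK2, which links ephrin-B to the cytoskeleton, fell from 5.55 ± 0.526 to 2.96 ± 0.413 FPKM (n = 3 each), with log2 -0.90 (edgeR adjusted p = 0.0047), and SH2D3A by 0.69 on the log2 scale. These 4 were still called after the GC correction (adjusted p = 0.00291 to 0.0154). NCK1, the paralogue of NCK2, was at 2.10, 1.61 and 1.70 FPKM with si NC against 2.34, 2.51 and 2.34 with PLOD3 siRNA (log2 0.42, edgeR adjusted p = 0.0413), and NCK1 and RASA1 lost their calls after the GC correction (0.611 and 0.181).

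Of 8 proteins tied to Eph receptors and ephrins through PDZ domains or their scaffolds, GIT1, PDLIM7 and PICK1 fell, by 0.59, 0.42 and 0.30 on the log2 scale (edgeR adjusted p = 0.021, 0.0211 and 0.0222), where 19.3% of all tested genes fell. All 3 lost their calls after the GC correction (adjusted p = 0.189, 0.72 and 0.968). SDCBP, the scaffold syntenin, overlapped between the groups at 21.8 ± 2.82 and 14.5 ± 5.28 FPKM (n = 3 each), with log2 -0.59 (edgeR adjusted p = 0.0948), and passed after the GC correction (-0.84, adjusted p = 0.0444).

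**Figure D4:**
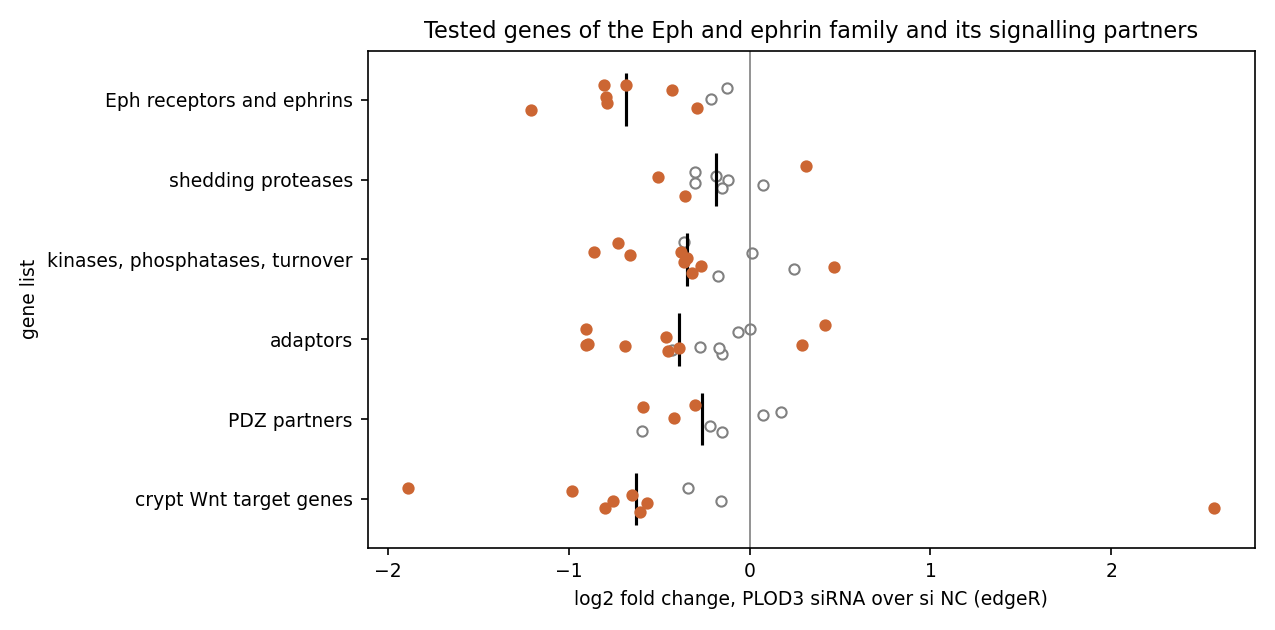
Log2 fold change of PLOD3 siRNA over si NC (edgeR) for each tested member, each tested gene of 4 partner lists and of the crypt Wnt targets, with 1 point per gene, filled where the adjusted p is under 0.05, and a line at each list's median. The median of the 9 tested members is -0.68 and that of the 9 tested genes of the shedding protease list is -0.18. The point near 2.57 is MYC.

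EPHB2 and EPHB3 are known targets of Wnt signalling, so other crypt targets were read beside them. Of 10 tested, 7 fell and MYC rose, against 19.3% lower and 16.2% higher over all genes, and the median log2 fold change was -0.63 (-0.50 after the GC correction). TCF7 (-0.34) and CCND1 (-0.16) were not called. After the GC correction 6 were lower and 0 higher, against 14.2% and 13% of all genes. ZNRF3 (edgeR adjusted p = 0.0904) and MYC (0.0547) then lost their calls. The 4 with the smallest p were NOTUM, RNF43, SOX9 and NKD1, with log2 fold changes of -1.89, -0.76, -0.98 and -0.56, each still called after the GC correction. Among these 4 and without the correction, EPHB2 (-1.21) lay between NOTUM and SOX9 on this scale, and EPHB3 (-0.79) between SOX9 and RNF43. After the GC correction the 4 were at -1.47 (NOTUM), -0.70 (RNF43), -0.92 (SOX9) and -0.48 (NKD1). EPHB2 was then at -1.003, still between NOTUM and SOX9. EPHB3 was at -0.45, a smaller fall than that of each of the 4. MYC was at 4.01, 5.01 and 4.17 FPKM under si NC, compared with 37.5, 3.14 and 38.9 under PLOD3 siRNA, so that replicate 2 of the treated samples stood apart (edgeR adjusted p = 0.0487, called in 1 of the 6 fits with 1 sample omitted). In that same sample EPHB2 and EPHB3 were at 1.05 and 1.06 FPKM, as low as in the other treated samples or lower. Whether Wnt signalling had a part in the fall of EPHB2 and EPHB3 was not tested.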

How the data were processed

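RNA-seq of 6 HCT116 samples (3 si NC, 3 PLOD3 siRNA) was used, grouped by their titles. The authors deposited 1 table with FPKM and estimated counts per gene and sample, per the file headers. The counts are whole numbers with a different total in each sample, and a gene without reads has 0.0001 FPKM. Tools listed in the submitters' processing notes were cutadapt 1.9, StringTie 1.3.4d and HISAT2 2.0.4. For the build, the annotation, strand and the way of counting, nothing is given in the sources used here. Of the table's identifiers, 58394 were in GENCODE 29 (GRCh38), of which 99.90% overlap the position annotated there, and coordinates were read as GRCh38. Counts piled up at multiples of 4 (on average 1490 genes a sample at 4, 558 at 3 and 312 at 5).

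Genes with a mean of at least 1 FPKM over all samples (12000) were tested on the estimated counts, used as deposited, with edgeR 4.0.16 in R 4.3.3 (TMM, trended dispersion, quasi-likelihood test, two-sided, Benjamini-Hochberg over all tested genes, threshold 0.05). The fits were also run on simulated counts, in which far fewer genes were changed than were called here. That run does not give their error rate in these data. Alternatives were DESeq2 1.42.0, limma 3.58.1 on log2(FPKM + 1), log2(FPKM + 0.1) and log2(TPM + 1), other scalings and filters, counts divided by 4, a replicate block, each sample left out, and offsets from a loess trend (span 0.5) of each sample on the GC content, or GC content and length, of the longest coding transcript (11968 genes with a value). Ratios were compared by exact permutation.

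Members and gene lists were chosen with earlier results of these data known. Named genes were the members, PLOD3, the other family genes, genes whose span overlaps a member (of which those sharing exon bases and above 1 FPKM are printed), and up to 4 genes per list with the smallest p. Genes named because a list had at most 5 calls were added after their values were seen, as were the receptor to ephrin ratios and the promoter motifs. Results of 2 partner lists are not reported here beyond their part in the total.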

Additional observations from a re-analysis of the deposited data

How the results depend on the processing

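The count of 7 members called lower was 6 or 7 with 1 sample omitted, 4 under a filter at a mean FPKM of 5 (6 members tested) and 3 after the GC and length correction. In all fits run, 0 members were called higher. EPHA1 and EPHB4 kept direction and call in all 18 alternatives, and EPHB2 in all 17 that tested it. EPHA2 lost its call in 2, EPHB3 and EPHB6 in 1 each and EFNB2 in 11. The sign turned for EFNA1 after the GC correction (log2 0.066) and without si NC replicate 2 (0.04, the range with 1 sample omitted being -0.436 to 0.04), and for EFNB1 after the GC correction (0.18) and the GC and length correction (0.20); neither was called in any fit.

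Signalling partners called lower (24) were 12 with limma on log2(TPM + 1) and 14 to 23 with a sample left out, 14 both without si NC replicate 3 and without PLOD3 siRNA replicate 1. Those called higher (5) were 3 at a mean FPKM of at least 5, 0 with no filter, 2 with limma on log2(FPKM + 1), 1 with limma on log2(FPKM + 0.1), 1 after the GC correction, 1 after the GC and length correction, 1 with the replicate block and 0 to 5 with a sample left out. Over all genes, calls lower (2319) were 1354 at a mean FPKM of at least 5, where 6095 genes were tested, 1461 with limma on log2(TPM + 1) and 1509 to 2011 with a sample left out. Calls higher (1945) were 1192 at a mean FPKM of at least 5 and 1083 to 1651 with a sample left out. Without si NC replicate 3 they were 1509 and 1106, and without PLOD3 siRNA replicate 1 1530 and 1083. The cause was not tested where a count moved with no change in the genes or samples tested.

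No pairing of the samples by replicate number was seen. Deviations of same-numbered samples from their group means correlated at r = 0.0486, -0.0107 and -0.0230 across genes, and not every sample correlated best with its own number. With 3 samples a group, this check cannot exclude a pairing. With the replicate block 1834 genes were lower and 1471 higher, 6 members were called lower, and EFNB2 was not (edgeR adjusted p = 0.064), nor EFNA2 of the other family genes (0.0565). With 3 samples a group, small changes of members could have gone undetected, and no detection limit was computed. Estimated counts were as low as 214 for EPHA4 and 316 for EPHB3. The largest SE of a tested member was that of EFNA1 (0.248), with estimated counts of 591 to 1272.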
